A study of Mus musculus with 12 samples.

Results

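Transcript levels of 10 genes of iron handling were described in mouse livers: the hepcidin genes Hamp and Hamp2, hemopexin (Hpx), transferrin (Trf), the transferrin receptors Tfrc and Tfr2, the iron exporter ferroportin (Slc40a1), the ferritin heavy and light chains (Fth1 and Ftl1) and bone morphogenetic protein 6 (Bmp6). The 10 genes were picked by name, with earlier results of the same libraries known, among them the fall of Hamp2 in chow-fed livers. That fall is therefore given as a description with no p-value, and no result over the 10 genes is independent support. All 10 were found among the 20093 genes that the tables of both diets list, 9 of them by name and Fth1 by its identifier, since the tables name it Fth1_2 and list no other row for this gene's identifier. Whether this row holds all reads of the gene is not given, which bears on every level of Fth1 below. All 10 passed the filter on low counts in each comparison.

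RNA sequencing of total liver RNA covered 12 libraries, 3 in each of 4 groups. Per the labels, every mouse was a C57BL/6N male with both Elavl1 alleles floxed (HuR flox/flox) that received an adeno-associated virus at 4 to 6 months of age. The virus carried Cre under the hepatocyte promoter Tbg (AAV8-Tbg-Cre) in the livers labelled HuRHep-/- and no Cre (AAV8-Tbg-null) in those labelled WT, so the controls also carry the floxed alleles and a virus. Mice of both genotypes were fed either normal chow, for a time the labels do not give, or for 16 weeks a diet high in fat (40 kcal%), cholesterol (2%) and fructose (20 kcal%), termed HFCF. The study's methods describe another model, a cross with albumin-Cre mice. Replicates are numbered without naming animals, so p-values measure the spread between these libraries.

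Iron is carried in plasma by transferrin, enters cells through transferrin receptors, is stored in ferritin and leaves cells through ferroportin. Hepcidin, a peptide hormone made by hepatocytes, binds ferroportin and causes its removal from the cell surface. Its transcription is raised by BMP6, which sinusoidal endothelial cells of the liver secrete and SMAD proteins relay, and by interleukin 6 through STAT3. Haem set free in plasma is bound by hemopexin, and haemoglobin by haptoglobin, both of them secreted by hepatocytes. HuR, encoded by Elavl1, is an RNA-binding protein that binds AU-rich stretches of messenger RNA.

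Library totals ran from 30071731 to 35949203 counted reads. Levels are given as CPM, counts as a share of the scaled library total. Elavl1 lay at 29.3 to 30.99 CPM in chow WT livers and at 38.8 to 42.8 CPM in the chow livers labelled HuRHep-/-, and at 23.9 to 27.0 and 32.2 to 34.2 CPM in the HFCF livers. The targeted transcript was thus higher, not lower, where a deletion is labelled. The log2 fold change was 0.41 (limma adjusted p = 0.022) in chow and 0.38 (adjusted p = 0.0327) in HFCF. Counts are per gene and not per exon, so they do not show whether the floxed part was lost. The labels could not be checked from them. Every direction given below for genotype rests on those labels, and WT and HuRHep-/- name labels throughout. The 10 hepatocyte markers had values in all libraries. Their summed level was 110100 to 133300 CPM in chow livers labelled WT, 88350 to 99720 in chow livers labelled HuRHep-/-, 78080 to 89940 in HFCF livers labelled WT and 69170 to 74480 in HFCF livers labelled HuRHep-/-. In bulk RNA, fewer cells of a type and less RNA per cell cannot be told apart. A gene was called where its adjusted p was at most 0.05 over all genes tested, its fold change at least 1.5 and its counts at least 10 over each group.

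Hamp, the gene of the active hormone, lies on chromosome 7 of GRCm38 (30942368 to 30944032, minus strand), and Hamp2, a paralogue not known to act on iron as hepcidin does, lies beside it (30922372 to 30924681). The 300-base promoter windows of RefSeq, on the minus strand of GRCm38.p6 at chr7:30943980-30944279 (Hamp) and chr7:30924132-30924431 (Hamp2), are printed because the results below turn on this pair. Capitals mark matches to the BMP response element core GGCGCC and to the STAT-type site TTCNNNGAA. The base that follows position 250 is the start site.
Hamp: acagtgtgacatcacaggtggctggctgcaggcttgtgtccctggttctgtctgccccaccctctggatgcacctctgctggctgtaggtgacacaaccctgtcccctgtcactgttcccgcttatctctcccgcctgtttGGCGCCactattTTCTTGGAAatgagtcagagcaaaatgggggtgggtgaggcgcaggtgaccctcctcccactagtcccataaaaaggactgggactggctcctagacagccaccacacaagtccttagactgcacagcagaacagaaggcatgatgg
Hamp2: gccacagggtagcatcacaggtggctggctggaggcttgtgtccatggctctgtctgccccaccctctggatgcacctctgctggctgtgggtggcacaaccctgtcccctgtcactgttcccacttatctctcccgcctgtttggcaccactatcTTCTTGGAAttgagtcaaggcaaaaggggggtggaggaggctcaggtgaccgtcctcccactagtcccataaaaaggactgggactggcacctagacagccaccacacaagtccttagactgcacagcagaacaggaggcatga
The windows share 276 of 297 aligned bases (92.9%). The Hamp window holds GGCGCC from position -109 and TTCTTGGAA from position -97 relative to the start site. In the Hamp2 window the STAT-type site lies at -94 with all 9 bases kept, while the BMP core differs by G4A, counted from 1 at the core's first base with the base of Hamp first, and keeps 5 of 6 bases. Over the 32851 promoter windows of the same length, 11.9% hold GGCGCC and 8.30% hold TTCNNNGAA. Both motifs read the same on either strand, and the matches do not overlap. A match is a description of letters and not a site of binding.

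**Figure D1:**
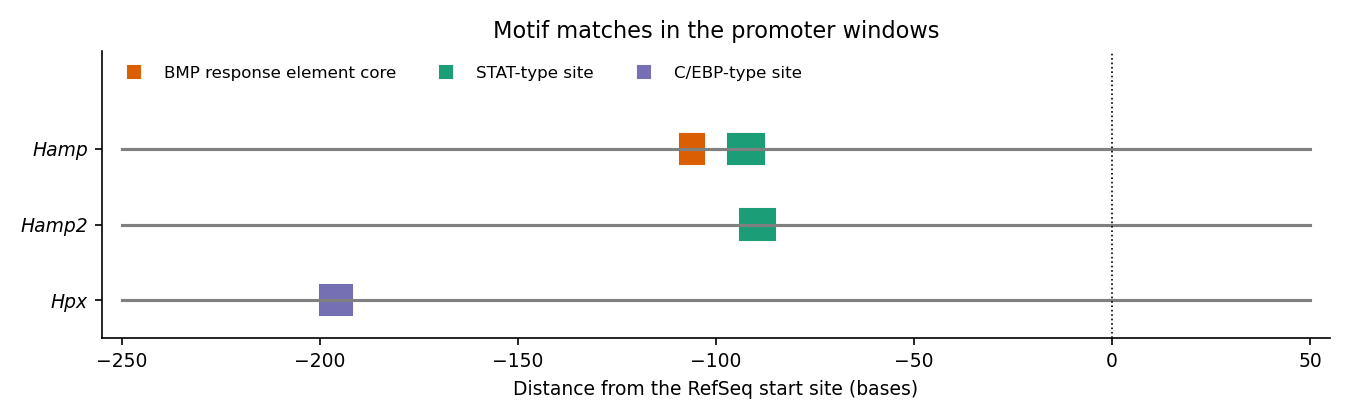
Positions of motif matches (coloured boxes) in the promoter windows of Hamp, Hamp2 and Hpx, along the distance in bases from the RefSeq start site (dotted line). The BMP response element core is matched in the Hamp window, from -109, and not in the other two, and the STAT-type site is matched in both hepcidin windows.

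Hamp overlapped between the genotypes on both diets and varied widely on HFCF. It was measured at 1077, 746 and 1027 CPM in chow WT livers and at 594, 483 and 762 CPM in chow livers labelled HuRHep-/-. The ranges overlapped by 1 liver on each side, and the log2 difference of -0.63 (standard error 0.19, limma adjusted p = 0.100) did not pass. HFCF WT livers had 122, 686 and 422 CPM of Hamp and the HFCF livers labelled HuRHep-/- 647, 597 and 185 CPM. Within each HFCF group 1 liver lay far below the rest, and the groups overlapped over most of their range (log2 difference 0.32, standard error 0.70, adjusted p = 0.792). Without the HFCF WT liver at 122 CPM (replicate 1) that difference was -0.37. All 3 HFCF livers labelled WT lay below all 3 chow livers labelled WT, with a mean of 409.8 ± 281.8 against 950.2 ± 178.3 CPM (SD, n = 3 each). This diet difference of -1.52 on the log2 scale (standard error 0.57, adjusted p = 0.0740) was not called and rested on single livers. It was -0.80 without HFCF WT replicate 1 and -2.05 (adjusted p = 0.0216) without HFCF WT replicate 2, and -1.52 (adjusted p = 0.0441) without HFCF HuRHep-/- replicate 3, a library of neither group compared. In the livers labelled HuRHep-/- it was -0.54 (adjusted p = 0.481). The diet, the table, the feeding time and the age at sampling cannot be told apart in any comparison of HFCF with chow.

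Hamp2 differed between the genotypes in opposite directions in the 2 diets. On chow it was at 14.6, 14.7 and 48.9 CPM in WT livers and at 6.03, 4.40 and 6.22 CPM in livers labelled HuRHep-/-. Every liver labelled HuRHep-/- was below every WT liver, by 3.97-fold in the fitted means (log2 -1.99, standard error 0.43). WT replicate 3 held 3.35 times the lowest level of its group, and without it the difference was -1.41. On HFCF the WT livers had 11.7, 23.1 and 18.6 CPM of Hamp2 and livers labelled HuRHep-/- 47.2, 36.0 and 48.6 CPM. Here every liver labelled HuRHep-/- was above every WT liver, by 2.51-fold (log2 1.33, standard error 0.24, limma adjusted p = 0.0311). With 1 library left out, the chow difference lay between -2.29 and -1.41. The call in HFCF was kept in the 2 fits without HFCF WT replicate 2 or 3, lost in the other 4 (adjusted p = 0.0553 to 0.125), and lost in the fit on all 12 libraries (adjusted p = 0.0515). The largest step of Hamp2 was between the livers labelled HuRHep-/- of the 2 diets, from 5.55 ± 1.00 to 43.9 ± 6.88 CPM (SD, n = 3 each). That step was 7.92-fold in the fitted means (log2 2.99, standard error 0.40), and the one between the WT livers -0.36 (standard error 0.40). Both rest on the chow values known when the genes were picked and are descriptions too. The genotype difference on HFCF less that on chow was 3.34 for Hamp2 (standard error 0.57), which holds the same chow values and was not called. For the summed counts of Hamp and Hamp2 it was 1.10 (standard error 0.755).

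**Figure D2:**
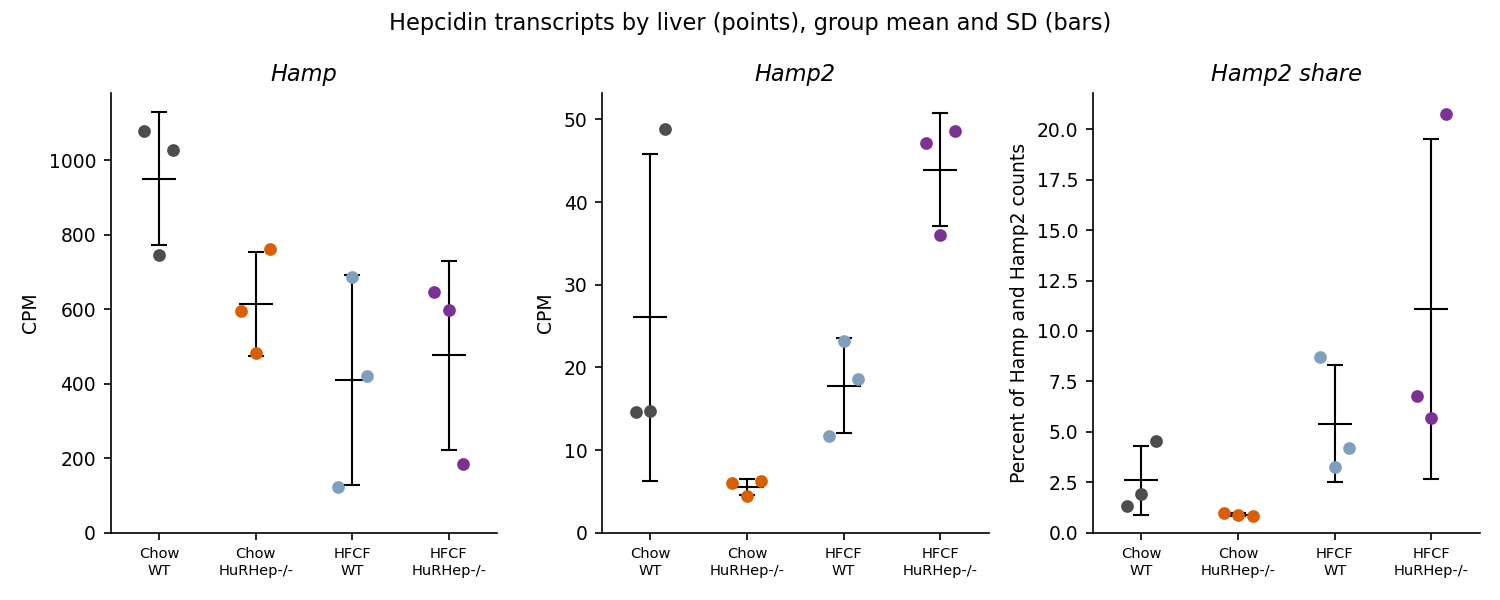
CPM of Hamp and Hamp2 and the percent of Hamp2 among the counts of both, in each liver (points) of the 4 groups, with group mean and SD (bars). Hamp2 lies at 4.40 to 6.22 CPM in chow and at 36.0 to 48.6 CPM in HFCF livers labelled HuRHep-/-, while Hamp overlaps between genotypes in both diets.

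The share of Hamp2 in the counts of the pair was lowest in chow livers labelled HuRHep-/-. Hamp2 made up 1.34, 1.94 and 4.54% of the counts of both genes in chow WT livers and 1.00, 0.901 and 0.809% in chow livers labelled HuRHep-/-. In HFCF livers the share was 8.71, 3.27 and 4.22% in WT and 6.79, 5.69 and 20.8% in HuRHep-/-. The liver at 20.8% was the one with the lowest Hamp of its group, and likewise the WT liver at 8.71%. Of the 31-base words of the longest Hamp2 transcript 31.4% also occur in Hamp, and 33.7% of those of Hamp in Hamp2, so reads may be split between them and both counts are uncertain. Summed over the genes, the genotype difference was -0.66 on chow (adjusted p = 0.0943) and 0.42 on HFCF (adjusted p = 0.703), close to that of Hamp alone.

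Hpx, the plasma carrier of haem (chromosome 7, 105591613 to 105600137, minus strand), was lower in every liver labelled HuRHep-/- on both diets. Chow WT livers held 3598, 3755 and 3954 CPM of Hpx and chow livers labelled HuRHep-/- 2055, 2367 and 1630 CPM. On HFCF the WT livers held 3490, 3626 and 4052 CPM and the livers labelled HuRHep-/- 1324, 1217 and 1165 CPM. No group labelled HuRHep-/- reached a WT liver, and the WT levels of the 2 diets overlapped. The fitted difference was -0.91 on chow (1.88-fold lower, standard error 0.15, limma adjusted p = 0.0213) and -1.61 on HFCF (3.04-fold lower, standard error 0.10, adjusted p = 0.00236). With 1 library left out, the call on HFCF was kept in 6 of 6 fits (-1.65 to -1.54). On chow the adjusted p rose above 0.05 in 4 fits, those without Chow WT replicate 1 or 3 or Chow HuRHep-/- replicate 1 or 2 (0.0527 to 0.0774), while the difference stayed between -1.03 and -0.77. Between diets Hpx fell in the livers labelled HuRHep-/- (log2 -0.69, standard error 0.13, adjusted p = 0.00224) and gave -0.02 (standard error 0.13, adjusted p = 0.930) in WT. The fall was -0.57, under the 1.5-fold limit, without Chow HuRHep-/- replicate 2. The genotype differences of the diets differed by -0.67 (standard error 0.19, adjusted p = 0.185). Hpx shares 0% of its 31-base words with other genes.

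The Hpx promoter window of RefSeq is chr7:105600067-105600366, minus strand of GRCm38.p6, and is printed because Hpx changed on both diets. Capitals mark the match to the C/EBP-type site TTGCNNAA, named for liver transcription factors that act on acute phase genes.
Hpx: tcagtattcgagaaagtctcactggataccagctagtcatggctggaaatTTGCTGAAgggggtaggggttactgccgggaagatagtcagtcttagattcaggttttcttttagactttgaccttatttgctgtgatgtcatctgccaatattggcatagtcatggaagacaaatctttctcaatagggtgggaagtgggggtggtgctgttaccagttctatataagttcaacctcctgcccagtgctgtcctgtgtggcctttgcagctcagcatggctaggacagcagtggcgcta
The match lies at -200 from the start site, and 10.8% of all windows hold TTGCNNAA on either strand. No match to GGCGCC, TTCNNNGAA or the E-box CACGTG (held by 7.15% of windows) lies in this window.

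Haptoglobin (Hp), the haemoglobin carrier, was higher in every liver labelled HuRHep-/- than in the WT livers of its diet. Its levels were 2739, 2668 and 2633 CPM in chow WT livers and 5134, 6280 and 3676 CPM in chow livers labelled HuRHep-/-, which was called (log2 0.88, standard error 0.19, limma adjusted p = 0.0456). On HFCF the WT livers had 2648, 2794 and 3540 CPM and the livers labelled HuRHep-/- 4446, 3737 and 4771 CPM (log2 0.52, standard error 0.16, adjusted p = 0.0872), all above WT but not called. Of 16 acute phase genes, 5 were called higher and 0 lower on chow (Saa1, Saa3, Itih3, Itih4 and Lcn2), where 1.27% and 0.954% of all genes were. On HFCF 1 was called higher (Itih3) and 0 lower, where 2.15% and 1.47% of all genes were. Between diets 1 was called higher (Orm3) and 10 lower in the livers labelled HuRHep-/-, Saa1, Saa3, Orm1 and the 3 fibrinogen genes among them, where 14.2% and 4.91% of all genes were and Hpx was called lower. In WT 3 were called higher and 5 lower, where 6.14% and 3.24% of all genes were and Hpx was not called. The summed level of these 16 was 13710 to 16280 CPM in chow WT, 14530 to 21860 in chow HuRHep-/-, 7993 to 11140 in HFCF WT and 10050 to 10740 in HFCF HuRHep-/-. The part of this group, and of the hepatocyte marker sums above, in the changes of Hpx and Hp was not tested.

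**Figure D3:**
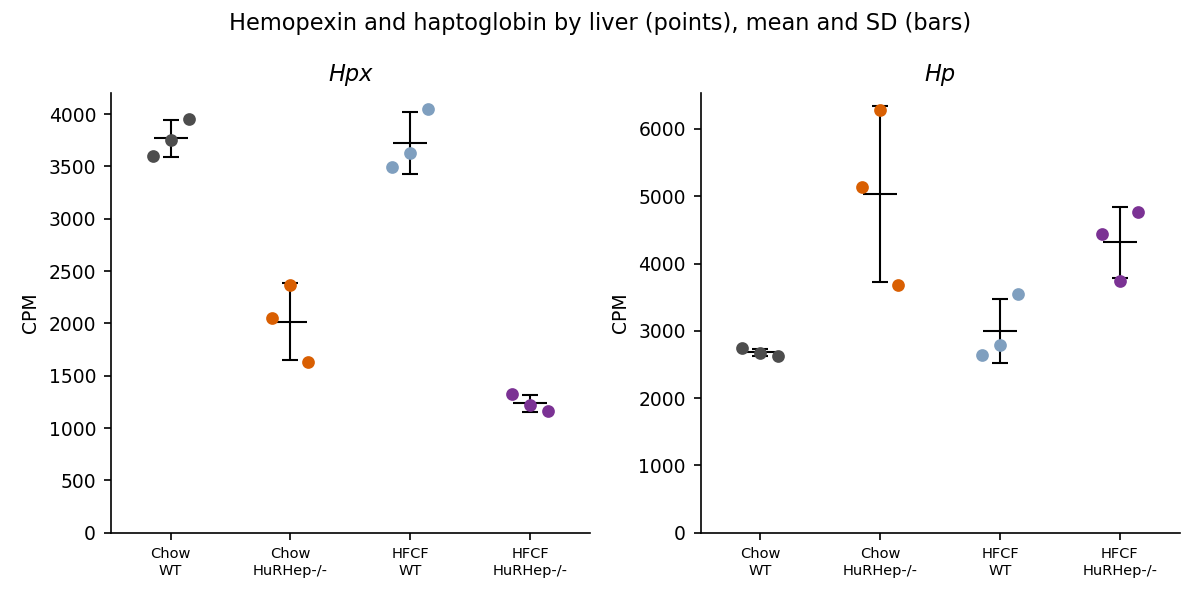
CPM of Hpx and Hp in each liver (points) of the 4 groups, with group mean and SD (bars). Hpx lies at 3490 to 4052 CPM in all WT livers and at 1165 to 2367 CPM in all livers labelled HuRHep-/-, while Hp lies higher in those livers, at 3676 to 6280 CPM.

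Iron regulatory proteins bind a hairpin whose loop reads CAGTGN in the transcripts of several of these genes. Bound in the 5′ leader it blocks translation, as in ferritin and ferroportin, and bound in the 3′ end of Tfrc it protects the transcript from decay. A search of GENCODE transcripts on GRCm38 for C, 5 bases, the 6-base loop and 5 bases that pair with the first 5 found these sites, shown with the loop in capitals because the members named above are known for such elements. A match is a description of letters and pairing and not a site of binding.
Fth1 5′ leader, chr19:9982738-9982754, plus strand: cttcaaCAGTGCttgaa
Ftl1 5′ leader, chr7:45459785-45459801, minus strand: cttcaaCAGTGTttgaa
Slc40a1 5′ leader, chr1:45925471-45925487, minus strand: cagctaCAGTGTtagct
Tfrc 3′ end, chr16:32631225-32631241, plus strand: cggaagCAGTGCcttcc
Tfrc 3′ end, chr16:32631604-32631620, plus strand: cgggagCAGTGTcttcc
Tfrc 3′ end, chr16:32631669-32631685, plus strand: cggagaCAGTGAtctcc
Tfrc 3′ end, chr16:32631716-32631732, plus strand: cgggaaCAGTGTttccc
Such a site was found in the 5′ leader of 28 of 21106 genes (0.133%) and in the 3′ end of 128 of 21132 (0.606%). Counts of transcripts do not measure translation, which the 5′ sites act on.

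Trf (chromosome 9, 103204001 to 103230444), the iron carrier of plasma, was the most abundant member per kilobase in all 4 groups. It was measured at 15860, 14930 and 15340 CPM in chow WT, 17420, 19770 and 16540 in chow HuRHep-/-, 12480, 14770 and 14020 in HFCF WT and 16190, 16830 and 14830 in HFCF HuRHep-/- livers. On chow all livers labelled HuRHep-/- lay above WT, while on HFCF the lowest of them and the highest WT liver were level and overlapped when the HFCF table was scaled alone. The differences of 0.22 (standard error 0.17, limma adjusted p = 0.476) and 0.20 (standard error 0.18, adjusted p = 0.495) did not pass. The gene model Gm20425 overlaps 63.5% of the exon bases of Trf on the same strand, and adding its counts, 1.74 to 8.76 CPM, left the differences at 0.22 and 0.20.

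Tfrc, the receptor that most cells use to take up iron-loaded transferrin (chromosome 16, 32608920 to 32632794), was low in liver. It was at 8.79, 10.8 and 17.6 CPM in chow WT and 6.64, 7.06 and 9.97 CPM in chow HuRHep-/- livers, and at 19.3, 6.38 and 17.0 CPM in HFCF WT and 15.9, 8.24 and 11.1 CPM in HFCF HuRHep-/- livers. The groups overlapped on both diets, with differences of -0.60 (standard error 0.26, limma adjusted p = 0.213) and -0.19 (standard error 0.43, adjusted p = 0.803).

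Tfr2, the receptor through which hepatocytes sense transferrin iron (chromosome 5, 137569840 to 137587481), was lower in the HFCF livers labelled HuRHep-/- than elsewhere. Its levels were 315, 337 and 347 CPM in chow WT, 308, 339 and 292 in chow HuRHep-/-, 285, 327 and 257 in HFCF WT and 216, 219 and 218 in HFCF HuRHep-/- livers. The last group lay below each of the other 3 with no overlap and varied by an SD of 1.52 CPM. The summed cholangiocyte, lymphocyte and neutrophil markers were higher in each of these 3 livers than in any liver of the other groups. The summed cholangiocyte markers (5 of 5 with counts) were 17.4 to 26.9 CPM there against 7.88 to 11.7 CPM in HFCF WT, with 2 of the 4 tested called higher (Krt19 and Krt7), where 2.15% of all genes were, and the summed lymphocyte markers (5 of 5) 4.63 to 5.50 against 1.83 to 2.96 CPM, with none called. The summed neutrophil markers (7 of 8 listed) were 4.82 to 5.76 CPM there against 2.47 to 3.81 in HFCF WT, with none called. The 7 stellate cell markers summed to 387 to 476 CPM there, 185 to 404 in HFCF WT, 142 to 211 in chow HuRHep-/- and 170.1 to 196 in chow WT livers, with overlap between the HFCF groups. Between diets, 7 of 7 stellate and 4 of 4 tested cholangiocyte markers were called higher in the livers labelled HuRHep-/-, where 14.2% of all genes were, and 2 of 7 and 0 of 4 in WT, where 6.14% were. Also called higher in the livers labelled HuRHep-/- were 2 of 5 lymphocyte (Cd3e and Nkg7) and 1 of 4 tested neutrophil markers (Csf3r). Of 10 markers of sinusoidal endothelium 2 were (Pecam1 and Cdh5). None of these lymphocyte, neutrophil and endothelial markers was called lower there, or called in WT. The part of these cells in the levels of Tfr2, Hpx, Slc40a1 and the other members was not tested. On HFCF the genotype difference was -0.42 (standard error 0.093, limma adjusted p = 0.0453), under the 1.5-fold limit, and its adjusted p rose to between 0.105 and 0.152 without HFCF WT replicate 1 or any of the HFCF HuRHep-/- replicates. On chow it was -0.09 (adjusted p = 0.542). Between diets it was -0.52 in the livers labelled HuRHep-/- (standard error 0.087, adjusted p = 0.00119) and -0.21 in WT (adjusted p = 0.101), and the 2 genotype differences differed by -0.31 (adjusted p = 0.291).

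Slc40a1, the only known iron exporter (chromosome 1, 45908068 to 45926523), was higher in the chow livers labelled HuRHep-/- than in the other groups. It was at 129, 104 and 115 CPM in chow WT and at 150, 175 and 150 CPM in chow HuRHep-/- livers, without overlap, and at 95.2, 112 and 100.4 CPM in HFCF WT and 106, 110.1 and 84.6 CPM in HFCF HuRHep-/- livers, with overlap. The difference on chow was 0.46 (standard error 0.096, limma adjusted p = 0.0432), under the 1.5-fold limit, and the adjusted p was 0.0555 to 0.161 when any 1 library was left out. On HFCF the difference was -0.06 (standard error 0.11, adjusted p = 0.772). Between diets Slc40a1 fell in the livers labelled HuRHep-/-, from 158 ± 14.4 to 100.2 ± 13.7 CPM (SD, n = 3 each, log2 -0.67, standard error 0.11, adjusted p = 0.00131). Without HFCF HuRHep-/- replicate 3, at 84.6 CPM, the fall was -0.55, under the fold limit. In WT livers it was -0.17 (adjusted p = 0.293), and the test of the difference between these changes gave -0.50 (standard error 0.16, adjusted p = 0.223). Slc40a1 is also expressed by macrophages, which recycle iron of red cells. The summed level of 11 macrophage markers, all of them with counts, was 223 to 291 CPM in chow WT and 293 to 438 CPM in chow HuRHep-/- livers, and 321 to 543 and 509 to 761 CPM on HFCF. All 11 estimates were higher in the livers labelled HuRHep-/- on both diets and 0 were called. Between diets, 7 of the 11 were called higher in the livers labelled HuRHep-/-, where 14.2% of all genes were and Slc40a1 was lower, and 4 of the 11 in WT, where 6.14% of all genes were and Slc40a1 was not called. The part of these cells in the levels of Slc40a1 was not tested.

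The ferritins gave no call in any comparison. Fth1 (chromosome 19, 9980598 to 9985098), the chain that oxidises iron, was at 1705, 1511 and 1682 CPM in chow WT, 1755, 1501 and 1704 in chow HuRHep-/-, 1741, 1680 and 2115 in HFCF WT and 2112, 2026 and 1842 in HFCF HuRHep-/- livers. Its genotype differences were 0.02 (standard error 0.097) and 0.10 (standard error 0.12). All HFCF livers labelled HuRHep-/- lay above their chow counterparts, by 0.27 on the log2 scale (standard error 0.11, limma adjusted p = 0.0729). Ftl1 (chromosome 7, 45457944 to 45459884), the chain that helps form the iron core, ranged over 3677 to 4599, 4032 to 4699, 3890 to 4966 and 4209 to 5271 CPM in the 4 groups in the same order, with overlap throughout and genotype differences of 0.04 and 0.15 (standard errors 0.13 and 0.15). Of its words 85.4% occur in other genes, 80.6% in Ftl1-ps1, whose own counts were 5.29 to 10.2 CPM. Counts on Ftl1 are uncertain for that reason.

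**Figure D4:**
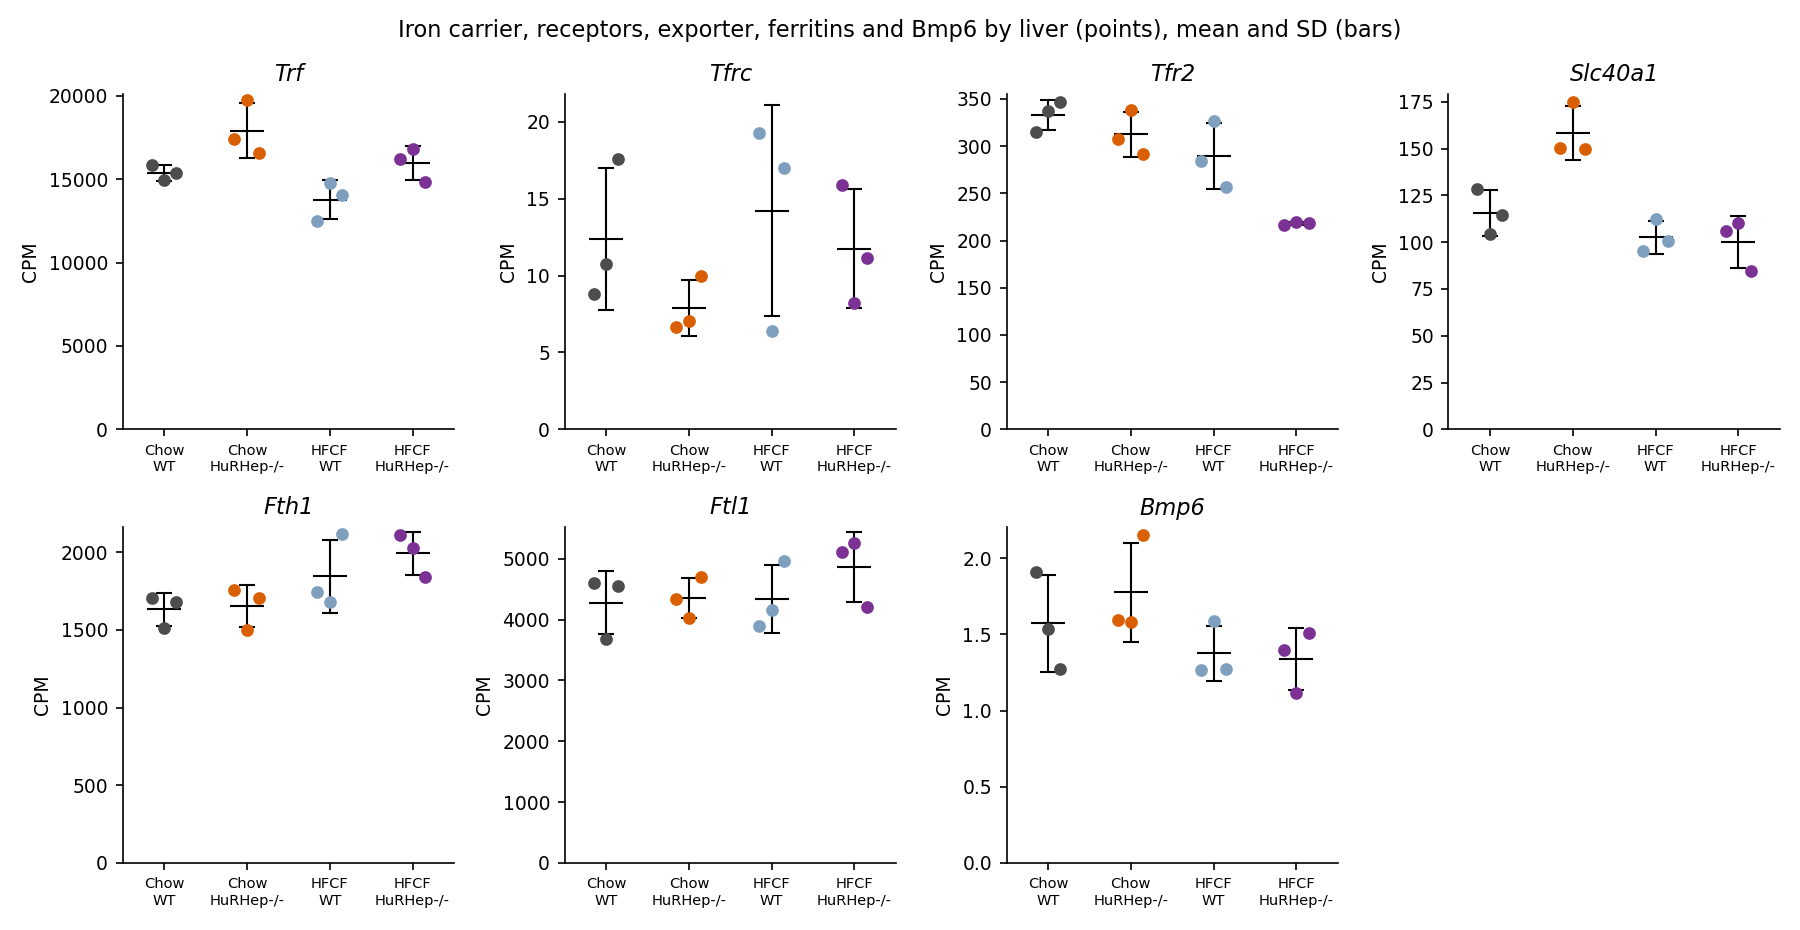
CPM of Trf, Tfrc, Tfr2, Slc40a1, Fth1, Ftl1 and Bmp6 in each liver (points) of the 4 groups, with group mean and SD (bars), each panel on its own linear axis from 0. Tfr2 lies at 216 to 219 CPM in HFCF livers labelled HuRHep-/-, below all other livers, and Slc40a1 at 150 to 175 CPM in chow livers labelled HuRHep-/-, above all others.

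Bmp6 (chromosome 13, 38345107 to 38500302), the signal that raises hepcidin when iron is high, was near the lower end of what these libraries count, with 39 to 70 reads in each. It ranged over 1.27 to 1.91 CPM in chow WT, 1.58 to 2.15 in chow HuRHep-/-, 1.27 to 1.59 in HFCF WT and 1.11 to 1.51 in HFCF HuRHep-/- livers, with genotype differences of 0.18 (standard error 0.23, limma adjusted p = 0.671) and -0.06 (standard error 0.21, adjusted p = 0.876). Between diets all HFCF livers labelled HuRHep-/- lay below those on chow (log2 -0.40, standard error 0.21, limma adjusted p = 0.156), and in WT the difference was -0.18. The 10 markers of sinusoidal endothelium, the cells that make Bmp6 in liver, summed to 156.5 to 198 CPM in chow WT and 147.5 to 187 in chow HuRHep-/- livers. On HFCF they summed to 167 to 199 CPM in WT and 195.5 to 198 in HuRHep-/- livers. With diet 2 of 10 (Pecam1 and Cdh5) were called higher in HuRHep-/- livers, where 14.2% of all genes were, and 0 in WT. The part of these cells in Bmp6 was not tested.

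Ordered by level per kilobase of merged exons, Trf was first and Ftl1 the next in all 4 groups, at 4631 ± 141 and 3194 ± 390 CPM per kilobase in chow WT (SD, n = 3). Hpx and Hamp followed and overlapped in 3 of the 4 groups. In HFCF WT livers, Hpx at 2483 ± 196 was clear of Hamp at 999.6 ± 687, and Hamp there overlapped with Fth1. Fth1 was at 470.5 to 574.6 CPM per kilobase in the 4 group means, and the lower members were Tfr2, Hamp2 and Slc40a1, of which Tfr2 and Hamp2 overlapped in chow WT, then Tfrc at 1.27 to 2.30 and Bmp6 at 0.344 to 0.455. Hpx was ahead of Hamp in both WT groups and behind it in both groups labelled HuRHep-/-, with overlap in all but HFCF WT. Hamp2 went from below Slc40a1 in chow livers labelled HuRHep-/- (9.51 ± 1.72 against 17.6 ± 1.60) to above Tfr2 in the HFCF livers of that label (75.3 ± 11.8 against 50.2 ± 0.351), without overlap in either case.

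Over the comparisons, few members were called. On chow 0 of 10 were called higher and 2 lower (Hamp2 and Hpx), where 1.27% and 0.954% of all genes tested were called, and 4 of 10 did not overlap between the groups, against 29.5% of all genes. On HFCF 1 was called higher (Hamp2) and 1 lower (Hpx), against 2.15% and 1.47%, and 3 did not overlap, against 36.8%. Hamp2 on chow is counted by the same rule as all genes, but since it was among the results known when the genes were picked, nothing is read from these counts. Between diets 0 members were called in WT livers, where 6.14% of genes were called higher and 3.24% lower. In the livers labelled HuRHep-/- 1 was called higher (Hamp2) and 2 lower (Hpx and Slc40a1), against 14.2% and 4.91%. The Hamp2 step rests on the chow values known at the choice of the genes, so nothing is read from its count here either. The median log2 difference of the members was -0.03 on chow and 0.02 on HFCF for genotype, and -0.17 in WT and -0.28 in HuRHep-/- livers for diet, with 0.005, -0.002, 0.009 and 0.002 over all genes. The genotype difference between diets was called for no gene in either direction (0.0% and 0.0% of 14535) by limma with a variance trend or with voom weights. At an unadjusted p under 0.05 were 2087 genes, among them 4 of the 10 members (Hamp2, Hpx, Slc40a1 and Tfr2), a count from which nothing is read, since Hamp2 was picked with its chow values known. The comparisons share groups: chow WT livers enter both the genotype comparison on chow and the diet comparison in WT, and so on around the 4 groups.

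**Figure D5:**
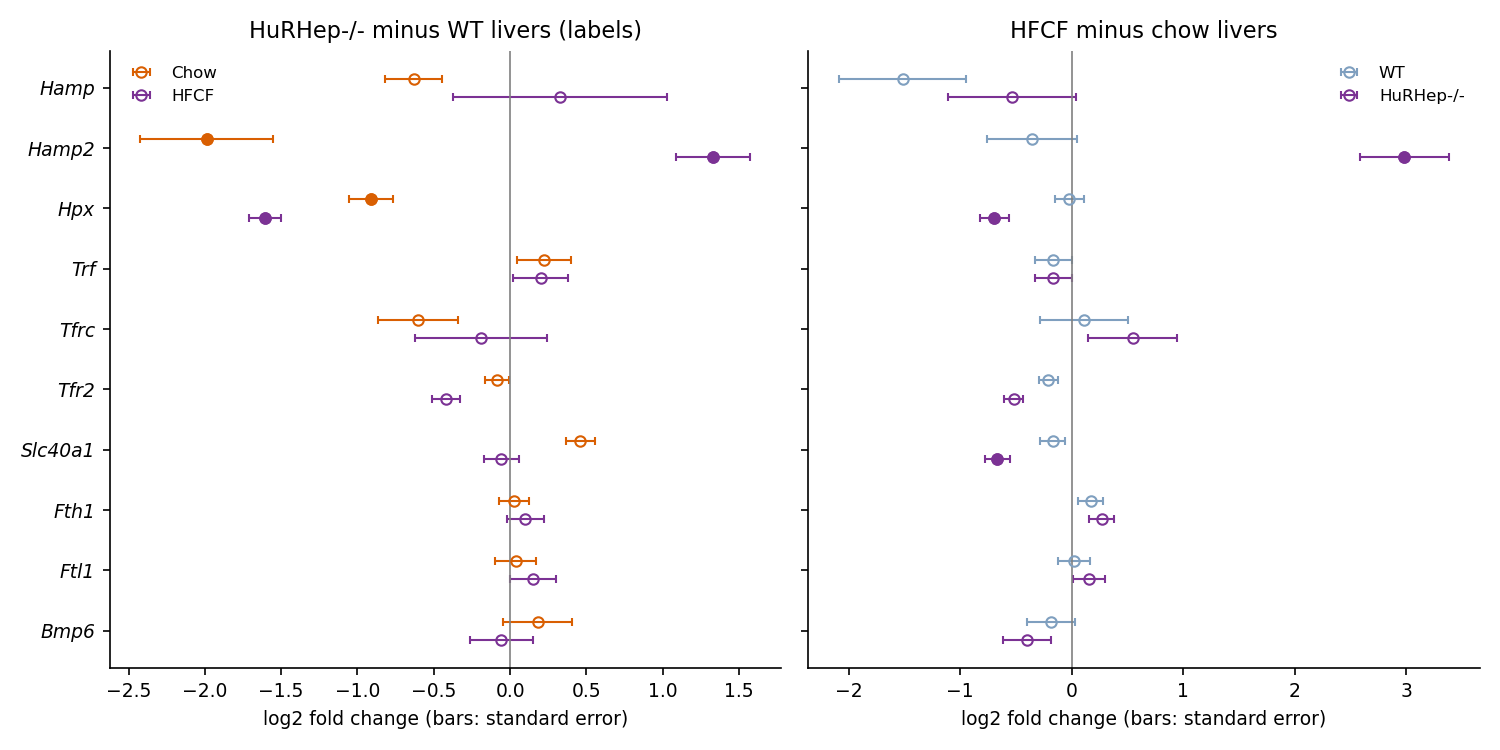
Log2 fold change (points) with standard error (bars) of the 10 members, for livers labelled HuRHep-/- against WT in each diet (left) and for HFCF against chow in each genotype (right), with filled points for called members. Hamp2 is at -1.99 on chow and 1.33 on HFCF, and Hpx at -0.91 and -1.61.

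Other genes of iron handling, from lists written from gene names, are given beside the shares of all genes called in the same comparisons. These were 1.27% higher and 0.954% lower for genotype on chow, 2.15% and 1.47% on HFCF, 6.14% and 3.24% for diet in WT, and 14.2% and 4.91% for diet in HuRHep-/- livers. Of 21 tested genes of the BMP and SMAD path that controls hepcidin, 0 were called on chow and 1 on HFCF, where Smad9, a SMAD of the BMP receptors, fell from 6.97 ± 0.217 to 3.64 ± 0.966 CPM (SD, n = 3 each, log2 -0.99, limma adjusted p = 0.0379). Smad9 also fell between diets, with log2 differences of -1.15 in WT and -2.08 in HuRHep-/- livers (adjusted p = 0.00759 and 0.000257). Hemojuvelin, the BMP co-receptor listed as Hfe2, rose with diet in WT (0.72, adjusted p = 0.0109). Id1, a target of BMP signals, and Fkbp1a, which binds BMP receptors, rose with diet in the livers labelled HuRHep-/- (0.87 and 0.79, adjusted p = 0.0268 and 0.0029). The medians of this list were -0.04 on chow and 0.01 on HFCF for genotype. Of 11 tested genes of the interleukin 6 and STAT3 path 0 were called in any of the 4 comparisons. Stat3 on HFCF had a log2 difference of 0.54 (adjusted p = 0.0419), under the fold limit. In the other iron lists Pcbp2 (-0.38), Slc25a28 (-0.43) and Steap3 (0.47) on chow likewise passed the adjusted p alone. On HFCF so did Slc25a37 (-0.31) and Abcg2 (-0.37). Medians of that list were 0.06 and 0.04.

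Among 16 tested genes of iron uptake, transport and export, Lcn2, which binds bacterial iron carriers, was called higher on chow, from 2.95 ± 1.45 to 27.7 ± 19.1 CPM (log2 3.07, limma adjusted p = 0.0286), and 0 genes were called on HFCF. Lcn2 is also in the acute phase list. With diet, Lcn2 and Slc11a1, an iron transporter of phagocytes, were called higher in WT (2.86 and 0.80), and Slc11a1 (1.22), Heph and Slc22a17 in HuRHep-/- livers, of 17 tested. Medians for genotype were 0.11 on both diets. Of 7 tested regulators, the iron regulatory proteins Aco1 and Ireb2 among them, 0 were called in the 4 comparisons, with medians of -0.02 on chow and -0.23 on HFCF.

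Among 20 genes of haem and haemoglobin handling, Hp and Flvcr2 were called higher on chow and Flvcr2 on HFCF, and 0 were called lower. Flvcr2, a membrane transporter related to a haem exporter, was at 2.90, 1.34 and 3.10 CPM in chow WT and 7.74, 6.996 and 5.38 CPM in chow HuRHep-/- livers (log2 1.53, limma adjusted p = 0.0418), and at 4.28, 3.33 and 5.27 against 7.93, 6.74 and 7.78 CPM on HFCF (log2 0.81, adjusted p = 0.0446). Between diets Flvcr2 was called higher in WT livers (0.87), while in HuRHep-/- livers Hmox1, the haem oxygenase, was called higher (0.78, adjusted p = 0.0113) and Cd163, the haemoglobin receptor of macrophages, lower (-1.37, adjusted p = 0.00248). The medians for genotype were 0.07 and -0.09. Of 22 genes of iron-sulphur cluster assembly 0 were called by genotype, and Lyrm4 alone by diet, lower in WT (-0.61, adjusted p = 0.00216). No gene of the 6 lists was called for the difference between diets in the genotype effect.

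The AU-rich motif ATTTA, of the kind HuR binds, occurs in the 3′ end of 4 of 10 members (40.0%), 5 times in Bmp6 and in Tfrc, 2 times in Slc40a1 and 1 time in Hamp, and in 61.6% of 20786 genes with an annotated 3′ end. The members' 3′ ends are 69 bases (Hpx) to 2458 bases (Tfrc) long, with a median of 800 over all genes. A longer end has more places for a match, but the part of length in these shares was not tested. Neither Hamp2 nor Hpx holds ATTTA there. The paper states that HuR also binds U-rich sequences and introns, which were not searched. Binding by HuR was not tested.

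By Pearson's r of log2 CPM over the 12 libraries, among 10201 genes whose mean normalized count reached 100, the genes most like Hamp were Cyp2c68 (0.906), Ass1 (0.895) and Pes1 (0.878). For Hamp2 they were Gm27216 (0.887), Rarres2 (0.875) and Hspb8 (0.868), for Hpx Rmi1 (0.976), D3Ertd751e (0.965) and Ddx23 (0.954), and for Bmp6 Zxdc (0.855), Polg2 (0.846) and Nf1 (0.845). These are descriptions over libraries that share diet, genotype label and scaling.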

How the data were processed

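Per the study's methods, the authors aligned reads of stranded total RNA libraries in CLC Genomics Workbench to GRCm38.p6 with the reverse strand and counted them per gene. They deposited raw counts per gene in 2 tables, 1 for each diet, without normalization. Commas separate digits in 21506 chow and 23123 HFCF values, and without the commas every value is a whole number. Because of the commas the unit was recorded as other and a count model was not used. That was a choice, since such counts would allow a count model. The filter behind the 20775 chow and 22709 HFCF genes listed is not given in the sources used here. No library duplicated another. Depth is the total count per library, and precision is limited by 3 libraries per group: an exact permutation test of 3 against 3 cannot give a p under 0.1 and was not run.

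From the deposited counts, log2 CPM was computed with a pseudocount of 0.5 and TMM factors (trims of 0.3 and 0.05, written anew). Fold changes are on that scale. Genes were kept where 3 or more libraries held a level worth 10 counts in a library of median size and the total reached 15 (13526 in chow, 14295 in HFCF, 14535 in both). Genotype was fitted within the 6 libraries of a table, and diet and the difference between diets over 12 libraries, with limma 3.58.1 in R 4.3.3 (variance trend, Benjamini-Hochberg adjustment over all genes tested). The code of the fits was checked on simulated counts with the same spread for every gene, which is no test of the calls made here. The members, the lists and the rules for naming genes (all members, and called genes of the lists) were chosen with earlier results of these data known. Genes of the iron lists that passed the adjusted p for genotype but not the fold limit are named as well. As alternatives, RLE or upper-quartile factors, other filters, a pseudocount of 2, voom weights, a replicate block, 12 libraries in every fit, adjusted p alone, sums with close copies, and leaving out each library were tried. Genes and transcripts were from GENCODE M21, promoters from RefSeq (GRCm38.p6), where 8 of 10 members had an entry (not Trf and Slc40a1), and words of 31 bases measured shared sequence. Read length is not given, so these words are a guide. Other steps ran in Python 3.11.15 with Biopython 1.88.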

Additional observations from a re-analysis of the deposited data

Results flagged for a closer look

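Hamp2 differed between the diets in the direction of its genotype difference. Every liver labelled HuRHep-/- lay below every WT liver on chow (4.40 to 6.22 against 14.6 to 48.9 CPM) and above every WT liver on HFCF (36.0 to 48.6 against 11.7 to 23.1 CPM). The HFCF difference less the chow difference was 3.34 on the log2 scale (standard error 0.57), and 2.76 to 3.64 over the other scalings, filters, weights, block and left-out libraries. For the summed counts of Hamp and Hamp2, which share sequence, it was 1.10 (standard error 0.755). No gene, Hamp2 included, was called for this difference. The chow side of this difference was known when Hamp2 was picked, so it is given with no p-value. Diet, table, feeding time and age cannot be told apart.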

How the results depend on the processing

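With 1 library left out, the members called by genotype numbered 0 to 1 on chow and 1 to 2 on HFCF against 2 in each, and those called by diet in WT 0 to 1 against 0. Voom weights called 1 on chow, and the fit on 12 libraries 1 on HFCF. In both it was Hamp2 that was not called (on HFCF adjusted p = 0.0515). In the other alternatives these counts stayed within 1.5 times. Over all genes, leaving out a library moved the chow calls from 301 to between 8 and 320, lowest without Chow HuRHep-/- replicate 2, and the HFCF calls from 517 to between 28 and 850, lowest without HFCF HuRHep-/- replicate 1. Interaction calls were 0 to 34, highest without HFCF WT replicate 3.

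Replicate numbers were not treated as pairs in the main fits. With the group mean of each gene taken away, same-numbered libraries correlated at -0.03, 0.11 and -0.02 on chow and 0.10, 0.21 and 0.09 on HFCF. With 3 libraries per group this cannot show whether same-numbered libraries share an effect. With the replicate block, members called numbered 3 on chow, 2 on HFCF, 0 in WT, 3 in HuRHep-/- and 0 for the interaction, against 2, 2, 0, 3 and 0, and genes called 226 on chow and 764 on HFCF. Hamp on chow then had an adjusted p of 0.0377 and Slc40a1 one of 0.076.

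Small differences that were not called changed sign. Leaving out libraries gave, for genotype on chow, Fth1 -0.0275 to 0.0918 and Ftl1 -0.0658 to 0.0906. On HFCF it gave Hamp -0.37 to 0.91, Tfrc -0.69 to 0.12, Slc40a1 -0.13 to 0.0636 and Bmp6 -0.15 to 0.0679. For diet it gave in WT Hamp2 -0.65 to 0.22, Hpx -0.082 to 0.0257, Tfrc -0.19 to 0.61 and Ftl1 -0.0856 to 0.0955, and in HuRHep-/- Hamp -0.86 to 0.043. For the interaction it gave Trf -0.0696 to 0.0724 and Tfrc -0.0631 to 0.73. Upper-quartile factors gave Hpx 0.0289 for diet in WT and Trf 0.0286 for the interaction, and the filter of 10 counts in every library gave Trf 0.0137. The cause was not tested.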
